A study of Homo sapiens with 4 samples.

Results

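Serine, one-carbon and other ATF4 target genes were followed in the established human gastric adenocarcinoma cell line AGS after ornithogalum or vehicle. The 10 genes (ASNS, PSAT1, PHGDH, PSPH, SHMT2, MTHFD2, ALDH1L2, CHAC1, SESN2 and DDIT4) were chosen by symbol from 18418 genes that the array annotation names on their own. They are carried by 12 of the 21214 transcript clusters (sets of probes covering 1 transcript locus) that have a gene symbol, with 2 clusters each for PSPH and MTHFD2. One group of 2 arrays came from cells given 0.01% ornithogalum, a homeopathic formulation, and the other group of 2 from cells given its vehicle, ethanol. Both treatments lasted 36 h in the same culture medium with serum. The labels call the 2 arrays of a group biological replicates without saying how independent their cultures were, so the p-values cover only the spread among these 4 samples. Values are the deposited log2 expression values, and a difference is ornithogalum minus vehicle on that scale.

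ATF4 is a transcription factor whose translation rises when kinases of the integrated stress response phosphorylate the initiation factor eIF2-alpha, for example when amino acids run short or proteins misfold in the endoplasmic reticulum. Its targets include the enzymes that make serine from a glycolytic intermediate (PHGDH, PSAT1 and PSPH, in that order), the mitochondrial enzymes that pass serine's carbon to folate (SHMT2, MTHFD2 and ALDH1L2), asparagine synthetase (ASNS), the glutathione-degrading enzyme CHAC1, and SESN2 and DDIT4, which restrain the growth kinase mTOR complex 1. Serine is also the entry point for carbon used in purine, thymidylate and methionine metabolism.

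Most epithelial markers were bright. EPCAM lay between 9.59 and 10.07, KRT8 between 10.37 and 10.59 and KRT18 between 9.34 and 9.49 on the 4 arrays, where the median named cluster lay between 4.48 and 4.71. The keratin KRT7 lay lower, between 3.72 and 4.36. The mean of the 9 epithelial markers was 8.02 and 8.003 with ornithogalum and 8.20 and 8.23 with vehicle. Over fibroblast, leukocyte, and endothelial and erythroid markers, 2 of 23 rose (PDGFRA, 2.08-fold, and CD68, 2.26-fold) and 0 fell by limma. At an unadjusted p under 0.05, 3 of them were above vehicle and 0 below. Over all 21214 clusters, 3004 were above and 4156 below at that unadjusted threshold. By limma at an adjusted p under 0.05, 6.57% of all clusters were called higher and 12.6% lower. More fibroblast markers rose without ornithogalum replicate 2, but so did more of all clusters. Without either vehicle array no marker passed, nor did any other cluster. Of 9 epithelial markers 0 rose by limma (1 at an unadjusted p under 0.05) and 3 fell, namely KRT19 (2.63-fold), CLDN7 (1.70-fold) and CDH17 (1.54-fold). Of these epithelial markers 1 fell after median centring or when every cluster was tested, and none passed without either vehicle array. Their calls also moved without ornithogalum replicate 2, as did those over all clusters. On ornithogalum replicates 1 and 2 the mean of the fibroblast list was 3.58 and 3.40, against 3.26 and 3.23 on the vehicle replicates, and that of the leukocyte list 4.02 and 3.99 against 3.81 and 3.82. For endothelial and erythroid markers it was 3.11 and 3.25 against 3.14 and 3.17. The part of these markers in the results below was not tested. In RNA from whole cultures, fewer cells of a kind and less RNA per cell cannot be told apart. The ornithogalum arrays differed more from each other (pooled SD 0.258) than the vehicle arrays (0.14), and ornithogalum replicate 1 had the narrowest spread of values, with an interquartile range of 2.44 against 2.56 on replicate 2 and 2.72 and 2.71 on the vehicle arrays.

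The genes did not move as one group. With each gene read from its cluster of highest mean, SESN2 and DDIT4 rose, PSAT1, SHMT2 and ASNS fell, and PHGDH, PSPH, MTHFD2, ALDH1L2 and CHAC1 did not pass the test, which was limma's moderated test with Benjamini-Hochberg adjustment over all 21214 clusters and a threshold of 0.05. That is 2 higher and 3 lower of 10, beside 6.57% of all clusters called higher, 12.6% called lower and 19.2% called in either direction. The second PSPH cluster also fell, which makes 4 of 12 clusters lower. The median difference of the 10 genes was -0.26, against 0.035 for all clusters tested. With dim clusters left out, 17.1% of the remaining clusters were called higher and 28.5% lower, with a median difference of -0.072. PHGDH and ALDH1L2 were then not tested, and 2 of the 10 genes rose and 4 fell. The groups did not overlap for 8 of the 10 genes, where 62.2% of all clusters had groups that did not overlap. Leaving out vehicle replicate 1 or 2 removed every limma call among these genes and among all clusters. With ornithogalum replicate 1 or 2 left out, more of these genes passed, but so did more of all clusters. Those counts are therefore not read as results about these genes.

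**Figure D1:**
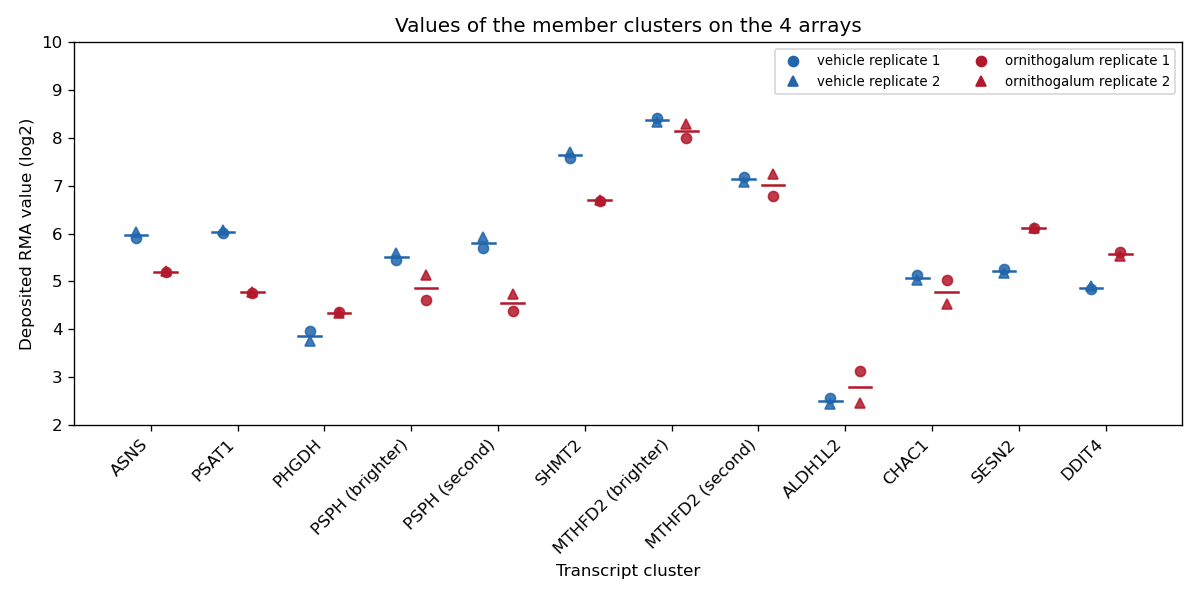
Deposited log2 values (vertical axis) of the 12 clusters (horizontal axis) on the 2 vehicle arrays (blue) and 2 ornithogalum arrays (red), with circles for replicate 1, triangles for replicate 2 and bars for the mean of a group. The red points of SESN2 and DDIT4 lie above the blue ones, those of PSAT1, SHMT2, ASNS and both PSPH clusters lie below, and the red circle and triangle stand apart for ALDH1L2, CHAC1, PSPH and MTHFD2.

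In serine synthesis PSAT1 fell, while PHGDH and the brighter PSPH cluster did not pass. PHGDH, the first and committed enzyme, read 4.36 and 4.33 on ornithogalum replicates 1 and 2 and 3.95 and 3.75 on vehicle replicates 1 and 2. Each of these values lay below the median named cluster of its array. Both ornithogalum values lay above both vehicle values, with a difference of 0.49 (SE 0.13, 95% interval 0.17 to 0.82) that did not pass the threshold (adjusted p = 0.0555). It passed after quantile normalization (0.59, adjusted p = 0.0377) and after centring each array on its median (0.65, adjusted p = 0.0333). A further cluster annotated to both PHGDH and MZT2B, which was not counted as PHGDH, had a difference of 0.38 (SE 0.13, adjusted p = 0.12).

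PSAT1, the aminotransferase of the second step, read 4.76 and 4.78 with ornithogalum and 6.00 and 6.07 with vehicle. The groups were far apart relative to the spread within each. PSAT1 fell 2.40-fold, from 6.04 ± 0.047 to 4.77 ± 0.015 (SD, n = 2 per group), with a difference of -1.26 (SE 0.11, adjusted p = 0.00428). This was the largest fall of the 10 genes, and 640 of the 21214 clusters had a larger negative difference, whether or not they passed.

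PSPH, the phosphatase that releases serine, was read by 2 clusters that the annotation assigns to the same transcripts. The cluster of higher mean read 4.61 and 5.13 with ornithogalum and 5.44 and 5.60 with vehicle, a difference of -0.65 (SE 0.20) that did not pass (adjusted p = 0.0887). The other read 4.38 and 4.73 with ornithogalum and 5.69 and 5.92 with vehicle. There PSPH fell 2.37-fold, with a difference of -1.25 (SE 0.17, adjusted p = 0.0104). Both clusters had lower values on each ornithogalum array than on either vehicle array, but they disagree on the size. Whether their probes overlap each other or a related pseudogene was not checked, so the size for PSPH is uncertain. The first cluster's difference was -0.39 (adjusted p = 0.107) without ornithogalum replicate 1 and -0.91 (adjusted p = 0.0125) without replicate 2. It was -0.44 (adjusted p = 0.133) after quantile scaling, and it passed when dim clusters were left out (adjusted p = 0.0346). In that setting 45.6% of the clusters tested passed, against 19.2% in the main fit.

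Among the mitochondrial folate enzymes SHMT2 fell and the other 2 did not pass. SHMT2, which splits serine into glycine and a folate-bound carbon, read 6.68 and 6.71 with ornithogalum and 7.59 and 7.72 with vehicle. The replicates of each group lay close together and the groups did not overlap. It fell 1.95-fold, from 7.65 ± 0.087 to 6.69 ± 0.024 (SD, n = 2 per group), with a difference of -0.96 (SE 0.12, adjusted p = 0.00757).

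MTHFD2, the mitochondrial methylene-tetrahydrofolate dehydrogenase, read 8.004 and 8.29 with ornithogalum and 8.42 and 8.34 with vehicle in its brighter cluster. The ornithogalum values lay just below the vehicle values, and the difference of -0.23 (SE 0.14, 95% interval -0.60 to 0.14) did not pass. It was -0.085 without ornithogalum replicate 1, -0.37 without replicate 2 and -0.070 after median centring. As for PSPH, whether the probes of the 2 MTHFD2 clusters overlap each other or a related pseudogene was not checked. The second MTHFD2 cluster read 6.78 and 7.25 with ornithogalum and 7.19 and 7.09 with vehicle, so that the groups overlapped, and its difference of -0.13 (SE 0.19) turned to 0.11 without ornithogalum replicate 1 and to 0.034 after median centring. ALDH1L2, which oxidises formyl-tetrahydrofolate in mitochondria, read 3.13 and 2.46 with ornithogalum and 2.57 and 2.43 with vehicle. Only ornithogalum replicate 1 lay above both vehicle arrays, and the difference of 0.30 (SE 0.24) was -0.041 without it and 0.64 (adjusted p = 0.0253) without replicate 2. A fall of the size measured in SHMT2 lay outside the 95% interval of the brighter MTHFD2 cluster. For ALDH1L2 the interval was -0.32 to 0.92, but its values lay well below those of the median named cluster (4.48 to 4.71). A cluster this dim may show little of a fall, so the interval cannot exclude one for ALDH1L2.

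**Figure D2:**
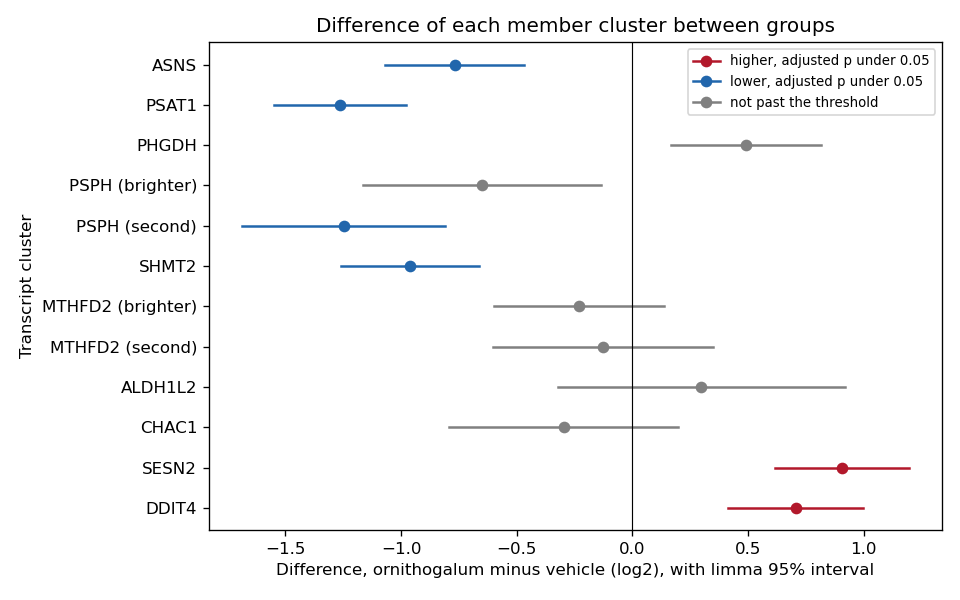
Difference between ornithogalum and vehicle (horizontal axis, log2) of each cluster (vertical axis), with limma's 95% interval as a line, for 2 arrays per group. Red marks clusters that rose, blue those that fell and grey those that did not pass an adjusted p of 0.05; SESN2 and DDIT4 lie to the right of 0 at 0.91 and 0.71, and PSAT1 lies farthest to the left at -1.26.

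ASNS makes asparagine from aspartate and glutamine and is a classic gene of the amino acid response. It read 5.20 and 5.21 with ornithogalum and 5.90 and 6.04 with vehicle. Each ornithogalum value was below each vehicle value. ASNS fell 1.70-fold, from 5.97 ± 0.098 to 5.20 ± 0.012 (SD, n = 2 per group), with a difference of -0.77 (SE 0.12, adjusted p = 0.0137).

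CHAC1, a gamma-glutamylcyclotransferase that breaks down glutathione and is induced by endoplasmic reticulum stress, read 5.03 and 4.54 with ornithogalum and 5.14 and 5.02 with vehicle. The first ornithogalum array lay between the vehicle arrays and the second below both. The difference of -0.30 (SE 0.19, 95% interval -0.79 to 0.20) did not pass (adjusted p = 0.341). Without ornithogalum replicate 1 CHAC1 was lower by the test (difference -0.54, adjusted p = 0.0468), and without replicate 2 the difference was -0.051. A rise of the size measured for SESN2 or DDIT4 lay outside the interval for CHAC1.

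Genes of the amino acid response are known to carry composite elements for ATF4 and C/EBP factors near their start, and ASNS is the best studied of them. The 250 bases before the annotated start were therefore read for the members that the RefSeq promoter table (GRCh38.p14) holds, which were 7 genes with 8 windows, ASNS having 2 starts. PSPH, SHMT2 and ALDH1L2 were not read. The motif searched was TGATGNAA, with N any base, on both strands. ASNS and CHAC1 held 1 match each, in 2 of the 8 windows, and 3.14% of all 35116 windows of this length held one. In ASNS it begins 68 bases before the start on the gene's strand and reads TGATGAAA, and in CHAC1 it begins 209 bases before the start and reads TGATGCAA on the opposite strand. The windows of both are shown with the match in capitals, each 5′ to 3′ on its gene's strand. Beside them stand those of PSAT1 and SESN2, the members with the largest fall and the largest rise, which held no match. The ASNS window is chr7:97872409-97872658 on the minus strand. The other 3 lie on the plus strand, at chr15:40953221-40953470 for CHAC1, chr9:78296875-78297124 for PSAT1 and chr1:28259268-28259517 for SESN2.
ASNS: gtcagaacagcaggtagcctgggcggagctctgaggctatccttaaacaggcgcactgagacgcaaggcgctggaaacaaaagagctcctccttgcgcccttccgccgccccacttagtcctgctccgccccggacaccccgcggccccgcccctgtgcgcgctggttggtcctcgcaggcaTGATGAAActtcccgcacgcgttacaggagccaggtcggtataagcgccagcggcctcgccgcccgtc
CHAC1: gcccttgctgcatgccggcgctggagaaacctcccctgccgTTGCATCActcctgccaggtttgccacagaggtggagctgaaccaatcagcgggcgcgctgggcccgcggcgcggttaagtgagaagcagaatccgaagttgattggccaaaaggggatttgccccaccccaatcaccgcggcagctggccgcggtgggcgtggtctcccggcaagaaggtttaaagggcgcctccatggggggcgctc
PSAT1: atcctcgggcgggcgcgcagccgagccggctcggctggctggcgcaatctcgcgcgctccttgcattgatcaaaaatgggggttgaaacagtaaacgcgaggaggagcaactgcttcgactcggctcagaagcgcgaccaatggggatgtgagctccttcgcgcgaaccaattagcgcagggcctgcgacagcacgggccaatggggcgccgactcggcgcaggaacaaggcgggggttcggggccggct
SESN2: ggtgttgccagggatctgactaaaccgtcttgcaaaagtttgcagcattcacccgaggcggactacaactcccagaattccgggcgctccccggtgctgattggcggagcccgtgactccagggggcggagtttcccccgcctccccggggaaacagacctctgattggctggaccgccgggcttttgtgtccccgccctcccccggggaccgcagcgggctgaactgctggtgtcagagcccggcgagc

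The 2 genes with the match did not include a gene that rose: ASNS fell and CHAC1 did not pass. PHGDH, MTHFD2, DDIT4, PSAT1 and SESN2, whose windows held no match, included genes that rose, fell and did not pass. A match of letters is not evidence of binding, and no match says only that these letters are not in this window.

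Both genes that restrain mTOR complex 1 rose. SESN2, a sestrin that senses leucine and acts through the GATOR complexes, read 6.11 and 6.12 with ornithogalum and 5.26 and 5.17 with vehicle. The replicates of each group were close and the groups did not overlap. It rose 1.87-fold, from 5.21 ± 0.064 to 6.12 ± 0.0093 (SD, n = 2 per group), with a difference of 0.91 (SE 0.11, adjusted p = 0.00808), and 541 clusters had a larger positive difference, whether or not they passed.

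DDIT4, also called REDD1, which acts on mTOR complex 1 through the TSC complex, read 5.61 and 5.53 with ornithogalum and 4.83 and 4.90 with vehicle. Again each ornithogalum value lay above each vehicle value. It rose 1.63-fold, from 4.87 ± 0.047 to 5.57 ± 0.056 (SD, n = 2 per group), with a difference of 0.71 (SE 0.11, adjusted p = 0.0158).

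Across the 11 alternatives run for each cluster, or 10 for PHGDH and ALDH1L2, which the filter on dim clusters removes, PSAT1, SHMT2, ASNS, SESN2, DDIT4 and the second PSPH cluster each passed in 9 and kept their sign in 11. The 2 in which they did not pass were those without 1 of the vehicle arrays, which gave adjusted p from 0.0655 to 0.0706 for PSAT1 and from 0.154 to 0.174 for DDIT4. Their values there stayed close to those on all arrays, at -1.30 and -1.23 for PSAT1 and 0.67 and 0.74 for DDIT4. Median centring, under which the median difference over all clusters went from 0.035 to 0.195, left SESN2 and DDIT4 higher (1.07 and 0.87) and PSAT1, SHMT2 and ASNS lower (-1.10, -0.80 and -0.61).

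**Figure D3:**
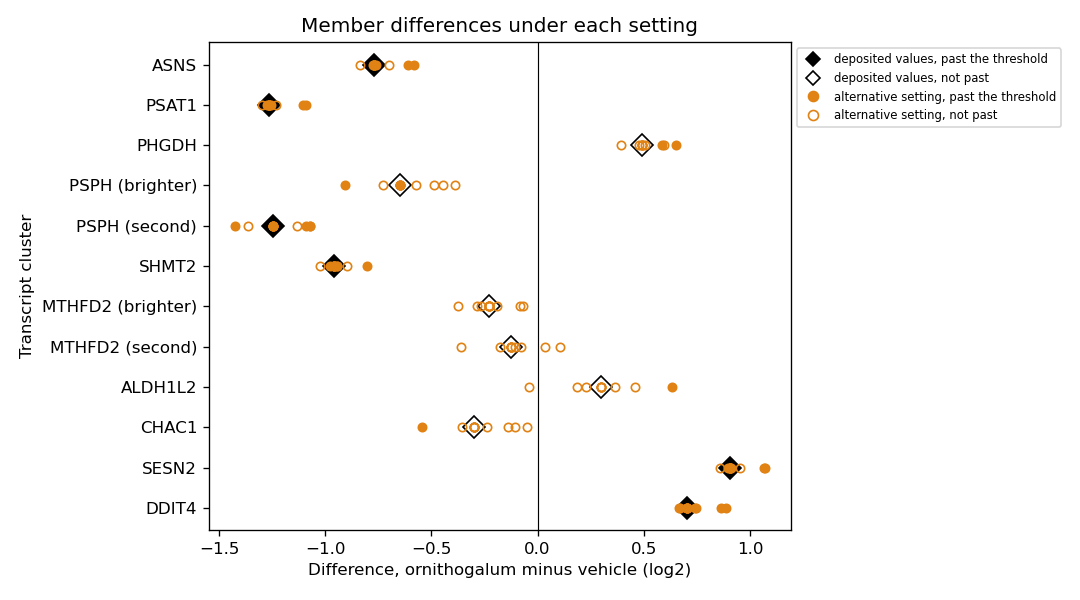
Difference between ornithogalum and vehicle (horizontal axis, log2) of each cluster (vertical axis) on the deposited values with all arrays (black diamonds) and under each alternative setting (orange circles), filled where the adjusted p was under 0.05. Values of ALDH1L2 and of the second MTHFD2 cluster lie on both sides of 0, running from -0.041 to 0.64 and from -0.36 to 0.11, whereas those of PSAT1 run from -1.30 to -1.09.

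Among other enzymes of serine and folate metabolism 1 of 22 measured rose and 6 fell, with a median of -0.26. Over all clusters 6.57% were called higher and 12.6% lower, so lower calls outnumbered higher ones in the whole table too, and after median centring they did not (2238 higher and 1898 lower). SHMT1, the cytosolic counterpart of SHMT2, read 4.14 and 3.90 with ornithogalum and 5.27 and 5.68 with vehicle, and fell 2.74-fold (difference -1.45, SE 0.18, adjusted p = 0.00829). MTHFD1, the cytosolic trifunctional folate enzyme, fell 1.60-fold, and SLC46A1, a folate transporter of the plasma membrane, fell 2.29-fold. SLC25A32, the mitochondrial folate carrier, was the member that rose (1.39-fold). The mitochondrial paralogues MTHFD1L and MTHFD2L had differences of 0.32 (SE 0.13) and 0.57 (SE 0.36) that did not pass, and ALDH1L1, the cytosolic counterpart of ALDH1L2, had 0.18 (SE 0.32). The serine hydroxymethyltransferases of both compartments thus fell. Without either vehicle array no gene of this list passed, nor did any other cluster. Without ornithogalum replicate 2 more of the list passed, but so did more of all clusters. An intensity trend gave 1 gene higher and 9 lower, where 8.59% and 15.8% of all clusters were called. Median centring gave 1 and 4 (10.5% and 8.95% of all clusters), and a block for the replicate number 0 and 5 (4.88% and 10.7%). A test over every deposited cluster gave 0 and 2 (2.9% and 5.04%).

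Further along the carbon's route, the methionine cycle and purine synthesis had 2 of 18 genes higher and 5 lower, and a median of -0.18. For this list and the next, the shares over all clusters were 6.57% higher and 12.6% lower. AMD1, the decarboxylase that commits S-adenosylmethionine to polyamines, rose 2.35-fold, and PPAT, the first enzyme of purine synthesis, 1.72-fold. ATIC, which carries out the last purine steps with a folate-bound carbon, fell 2.24-fold, AHCYL1 2.01-fold and MTR, methionine synthase, 1.68-fold. Among 14 asparagine, glutamine and glutamate enzymes, GOT1, the cytosolic aspartate aminotransferase, rose (1.87-fold) and 0 fell by limma. An unadjusted p under 0.05 gave 2 above and 5 below vehicle. Over all 21214 clusters it gave 3004 above and 4156 below. Without either vehicle array no gene of these lists passed, nor did any other cluster. With ornithogalum replicate 1 or 2 left out more of the asparagine list fell, but so did more of all clusters. With an intensity trend or with dim clusters left out 3 of the asparagine list fell, where 15.8% and 28.5% of all clusters tested fell. After quantile or median scaling 2 of the asparagine list rose instead of 1. In the methionine list 3 fell after median centring or with a block for the replicate number, and 1 rose and 2 fell when every cluster was tested.

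Of 14 enzymes of glutathione metabolism and cystine supply, around CHAC1, 1 rose and 6 fell, with a median of -0.21, beside the 6.57% higher and 12.6% lower over all clusters. The peroxidase genes GPX8 and GPX2 fell 4.98-fold and 3.71-fold. GPX8 read 2.93 and 2.82 with ornithogalum and 5.18 and 5.20 with vehicle. Its ornithogalum values lay well below the median named cluster, so the size of its fold is uncertain. The 2 chains of the cystine transporter went opposite ways, with SLC7A11, the transporting chain, at 4.42 and 4.25 with ornithogalum and 6.37 and 6.55 with vehicle (4.35-fold lower). SLC3A2, the shared heavy chain, read 9.02 and 8.50 against 7.56 and 7.59 and rose 2.27-fold. CHAC2, the paralogue of CHAC1, had a difference of -0.20 (SE 0.22) that did not pass. Here no gene passed without either vehicle array, nor did any other cluster, and the calls also moved without ornithogalum replicate 1. When every cluster of the table was tested 0 rose and 5 fell, beside 2.9% and 5.04% of all clusters.

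In the pathway of SESN2 and DDIT4, 5 of 33 others rose and 7 fell, and the median was -0.052. The shares over all clusters were 6.57% higher and 12.6% lower. The sestrin SESN1, known as a p53 target, read 7.82 and 7.90 with ornithogalum and 6.55 and 6.41 with vehicle and rose 2.60-fold. SESN3 read 2.91 and 2.88 with ornithogalum and 2.33 and 2.53 with vehicle, well below the median named cluster. Its difference was 0.46 (SE 0.13, adjusted p = 0.0645). All 3 sestrins thus had higher values on each ornithogalum array than on either vehicle array, and 2 of them passed. Over all clusters 62.2% had groups that did not overlap, in either direction. DDIT4L, the paralogue of DDIT4, had 0.37 (SE 0.25) with overlapping groups. RRAGC, a Rag GTPase that recruits mTOR complex 1 to the lysosome, rose 2.34-fold and LAMTOR5, of its lysosomal anchor, 1.67-fold. EIF4EBP2, a repressor of translation that mTOR complex 1 inactivates, fell 1.91-fold, RPTOR, a core subunit of the complex, 1.70-fold and NPRL3, of the GATOR1 inhibitor, 1.70-fold. Of this list 0 passed without either vehicle array, and 3 rose and 3 fell when every cluster of the table was tested.

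The ATF4 arm itself was also divided. ATF4 mRNA, whose control is largely translational, was read by 2 clusters with differences of 0.27 (SE 0.11, adjusted p = 0.161) and 0.21 (SE 0.12), neither past the threshold. Of the 16 genes of this arm 4 rose and 3 fell, with a median of 0.12. Shares over all clusters were 6.57% higher and 12.6% lower. DDIT3 (CHOP), a stress transcription factor, read 6.74 and 6.33 with ornithogalum and 4.83 and 5.11 with vehicle and rose 2.96-fold, and ATF3 rose 2.83-fold. PPP1R15A and PPP1R15B, which direct dephosphorylation of eIF2-alpha, rose 7.94-fold and 1.95-fold. The kinase genes EIF2AK4 (GCN2, which senses uncharged tRNA), EIF2AK1 and EIF2AK2 fell 3.09-fold, 1.99-fold and 2.06-fold, while EIF2AK3 (PERK, of the endoplasmic reticulum) had a difference of 0.20 that did not pass (adjusted p = 0.356). TRIB3, a pseudokinase commonly used as a readout of ATF4, read 4.37 and 4.15 with ornithogalum and 4.38 and 4.22 with vehicle, with overlapping groups and a difference of -0.036 (SE 0.14).

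Beside 6.57% higher and 12.6% lower over all clusters, 7 rose and 9 fell of 36 other genes reported as ATF4 targets. Their median was -0.20, and some of them are also in the lists above. The highest by p were GDF15, a stress cytokine (6.42-fold), KLHL24 (5.34-fold) and SLC38A2, a transporter of small neutral amino acids (3.89-fold). The lowest were SLC7A11, EPRS1, a tRNA synthetase (3.29-fold), and PCK2, the mitochondrial PEP carboxykinase (2.63-fold). Without either vehicle array no gene of the ATF4 arm or of these targets passed, nor did any other cluster. Counts with an ornithogalum array left out are not read here, since those over all clusters moved too. Of the targets 6 rose and 7 fell when every cluster of the table was tested. Over all 7 pathway lists, counting each gene once, 18 of 142 rose and 35 fell, with 22 and 26 after median centring. The same centring took all clusters from 1393 higher and 2683 lower to 2238 and 1898. The shares over all clusters include many dim ones. With dim clusters left out, 21 of the pathway genes still tested rose and 45 fell, beside 17.1% and 28.5% of all remaining clusters.

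**Figure D4:**
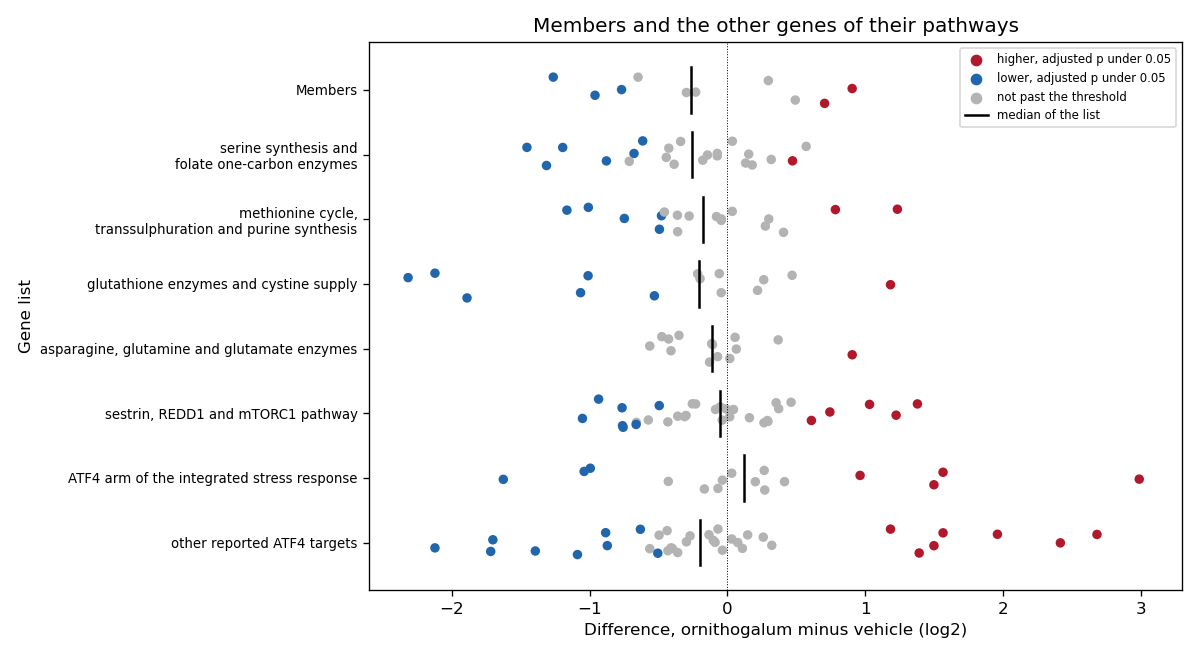
Difference between ornithogalum and vehicle (horizontal axis, log2) of the 10 members and of the genes of each pathway list (vertical axis; vertical jitter has no meaning), 1 point per gene, with the median of each list as a black line. Red points rose, blue points fell and grey points did not pass an adjusted p of 0.05; each row other than the asparagine list holds both red and blue points, and the medians lie between -0.26 and 0.12.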

How the data were processed

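The 4 AGS samples were hybridised as labelled cDNA from total RNA to Affymetrix Human Gene 1.0 ST arrays. The authors deposited 1 log2 value per array and transcript cluster; the submitters' processing notes name RMA and Affymetrix Expression Console 1.1. Other processing settings are not stated in what was used here. Genes were named from the platform annotation (33297 clusters, of which 19461 have 1 symbol, 1753 several and 12083 none), and RefSeq gave the current symbol for 19430 clusters. No probe sequences or raw array files were used. Precision rests on there being 2 arrays per group.

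Each of the 21214 named clusters was fitted in R 4.3.3 by limma 3.58.1 (lmFit, then eBayes with no trend), with no block and no filter on dim clusters. Tests were two-sided, adjusted by Benjamini-Hochberg and read at 0.05. "Rose" and "fell" refer to that threshold, fold changes are 2 raised to the size of the log2 difference, and SE is limma's. The fit was tested on simulated data with shifts larger than any difference among the 10 genes and the same spread in both groups. That test does not cover differences of the size reported here or the unequal spread of the groups. A gene with several clusters was read from that of highest mean log2 value, and all clusters of the 10 genes are given. The genes named from the other lists are the 3 of smallest p in each direction among those that passed, with paralogues of the 10 genes and ATF4, ATF3, DDIT3 and TRIB3 whatever their p. The 10 genes and the lists were chosen with earlier results of these data known. Lists are described by counts and medians only.

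The alternatives tried were a block for the replicate number, each array left out in turn, scaling by quantiles or by the median, dim clusters left out, an intensity trend, every cluster of the table, array weights, every cluster of each gene and a stricter motif.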

Additional observations from a re-analysis of the deposited data

How the results depend on the processing

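Leaving out 1 array gave 0 to 3 of the 10 genes higher and 0 to 4 lower, and 0 to 20 higher and 0 to 47 lower among the 142 genes of the pathway lists, where 0 is the count without either vehicle array. With 3 arrays a single residual degree of freedom remains, and the lone array is assumed to vary like the others. How many of all clusters passed also moved with the array left out. These counts are therefore not read as results about the 10 genes or the lists. With the replicate number as a block, 2 of the 10 genes rose and 3 fell, and 16 and 29 of the pathway genes, which changed no call among the 10. The deviations of same-numbered arrays from their group means correlated at -0.0585 across clusters, so the numbers are not taken to pair the arrays. Testing every cluster of the table left 21 pathway genes lower instead of 35. The share of clusters called was then 7.94%, and it was 15.6% with the block, against 19.2% in the main fit. Under the other scalings, filters, trend and array weights the 10 genes gave 2 or 3 higher and 3 or 4 lower. Over all clusters the share called was 19.2% to 19.5% under the scalings and array weights. It was 24.4% with the trend and 45.6% with dim clusters left out. The sign reversed for the second MTHFD2 cluster (-0.36 to 0.11 over the arrays left out, 0.11 being without ornithogalum replicate 1, and 0.034 after median centring) and for ALDH1L2 (-0.041 to 0.64, with -0.041 without ornithogalum replicate 1). With C at the open position of the motif, 1 gene held it instead of 2. With 2 arrays per group, a gene that did not pass is limited only by its interval.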
